A study of Mus musculus with 6 samples.

Results

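Acr, Acrbp, Acrv1 and Spink2 are 4 genes whose products lie in the acrosome, the secretory vesicle over the sperm nucleus. They were found by symbol in the authors' deposited table of probe sets with a 4-fold or larger difference between aggregated primary mouse Sertoli cells and the MSC-1 line. Acrbp has 2 probe sets there and the other genes have 1 each, so 5 of the 3198 listed probe sets belong to these genes, and 0 of them were found under an older alias. The table counts 2329 genes with a symbol of their own. Because listing required the 4-fold difference, the differences of the 4 genes are given as a description with no test.

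The study compared 3 arrays of primary Sertoli cells of strain C57BL/6 x 129 with 3 arrays of MSC-1, in search of what lets Sertoli cells survive and protect a graft. Sertoli cells are the somatic nurse cells of the seminiferous tubule, and MSC-1 is a Sertoli cell line immortalised by the viral large T antigen, which a Sertoli cell promoter drove in the tumour of origin. Cells of both groups had aggregated for 48 h at 37 °C in Ham's F10 medium with 10% serum, and no further treatment was given. The labels put the donor mice at 10 to 20 days in the growth protocol and at 19 to 20 days in the design text, and leave unsaid whether replicates came from different animals or cultures. Any p-value therefore measures only the spread between these samples, which may be technical.

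The acrosome is built by haploid spermatids from Golgi vesicles and holds enzymes and binding proteins that are released at fertilisation. Acr encodes acrosin, a serine protease stored as the zymogen proacrosin. Acrbp encodes the protein that binds proacrosin and keeps it packed in the acrosome. Acrv1, also called SP-10, encodes a protein of the acrosomal vesicle that is made in round spermatids. Spink2 encodes a Kazal-type inhibitor that holds acrosin in check. In the mouse, the Acr transcript is already present in pachytene spermatocytes, before the haploid stage, and somatic Sertoli cells build no acrosome.

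All 4 genes were brighter on every primary Sertoli cell array than on any MSC-1 array. Spink2 differed most, at 5.98 ± 0.15 (standard error) on the log2 scale, and Acrv1 least, at 1.66 ± 0.20. Among the primary arrays, Acr, Acrbp and Spink2 were lowest on array 1, whereas Acrv1 was lowest on array 2. The order of Acrv1, array 1 highest and array 2 lowest, held for 5 of 9 listed spermatid and 0 of 15 spermatocyte genes. Of all probe sets with a positive fold 9.73% had it, as did 3 of 4 listed peritubular genes. The spermatid genes with the largest differences were instead lowest on array 1. For the other acrosome genes the highest array differed, being array 2 for Acr and array 3 for Acrbp and Spink2.

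The upstream sequences of Acrbp, Acrv1 and Spink2 are shown because these genes were bright in the same samples while Acrv1 varied differently between them. They are from RefSeq on build GRCm38.p6, which held a promoter for 3 of the 4 genes, and each is the 250 bases before the annotated start, 5′ to 3′ on the gene's own strand. Acrbp lies at chr6:125049677-125049926 on the plus strand, Acrv1 at chr9:36692970-36693219 on the plus strand, and Spink2 at chr5:77211472-77211721 on the minus strand. The Acrbp and Acrv1 windows end just before the first base of the annotated gene. For Spink2 the most upstream of 3 starts in the table was taken, and its window lies inside the annotated span of the gene. Capitals mark matches, on either strand, to the cyclic AMP response element TGACGTCA, to its shortened form TGACGT, to the repeat unit GTGTGT, to the TATA box written as TATAAA, to the box CCAAT or to the core of a GC box, GGGCGG. These motifs were chosen with the sequences in view.
Acrbp: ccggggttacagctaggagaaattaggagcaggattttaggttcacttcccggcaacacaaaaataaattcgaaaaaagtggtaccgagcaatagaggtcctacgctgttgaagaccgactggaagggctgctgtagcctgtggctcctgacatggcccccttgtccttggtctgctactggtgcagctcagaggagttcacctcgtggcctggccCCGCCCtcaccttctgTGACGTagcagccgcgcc
Acrv1: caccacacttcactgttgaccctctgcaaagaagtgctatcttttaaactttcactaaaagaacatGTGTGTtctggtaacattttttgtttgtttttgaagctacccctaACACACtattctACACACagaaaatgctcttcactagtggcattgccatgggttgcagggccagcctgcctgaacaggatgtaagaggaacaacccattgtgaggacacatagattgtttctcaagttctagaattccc
Spink2: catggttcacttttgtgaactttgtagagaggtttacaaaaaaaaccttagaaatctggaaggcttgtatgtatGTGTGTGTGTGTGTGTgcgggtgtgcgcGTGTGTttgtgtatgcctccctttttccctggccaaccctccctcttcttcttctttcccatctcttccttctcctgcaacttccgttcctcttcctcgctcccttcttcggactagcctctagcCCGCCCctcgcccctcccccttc

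The Acrbp window holds 1 match to TGACGT, a shortened form of the cyclic AMP response element, to which CREM, an activator of spermatid genes, binds. It starts 18 bases upstream of the transcription start. TGACGT occurs in 6.47% of the 32851 RefSeq promoter windows of this length, and the full element TGACGTCA, which contains it, in 1.55%. The Acrv1 window holds 3 separate matches to GTGTGT, of which 2 are on the opposite strand and read ACACAC in the sequence above. In the mouse, GTGTGT motifs of the Acrv1 promoter are known to bind the repressor TDP-43. The Spink2 window holds 7 matches to GTGTGT, of which 6 overlap in a single repeat, and 14.9% of all windows hold this motif. The GC box core GGGCGG has 1 match on the opposite strand in each of the Acrbp and Spink2 windows and occurs in 32.7% of all windows. The TATA box, in 12.4% of all windows, and the CCAAT box, in 33.8%, have no match in these windows. The Acrv1 window has 42.0% G and C bases, against 55.6% for Acrbp, 51.2% for Spink2 and a median of 52.4% over all windows. A match describes the letters and is not a measured binding site.

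Values for each array are deposited intensities on a linear scale for 45037 probe sets, after 64 control probe sets were left out. The median intensity of an array was 27.2 to 29.8 for primary cells and 23.0 to 24.7 for MSC-1. Precision is limited by having 3 arrays a group. No detection call was given, so signal over background is unknown. Differences were taken on the log2 scale of the intensity plus 16, after each array had been centred on its median. On that scale the median of all probe sets was -0.18 for primary minus MSC-1. All 3198 signs of the authors' table match primary over MSC-1 in these intensities, which sets the direction of the deposited folds. Primary array 1 stood apart from the other primary arrays, correlating with them at 0.965 and 0.968 over probe sets, while arrays 2 and 3 correlated at 0.987. Of 16 Sertoli cell markers 7 were listed, 6 of them higher in primary cells, among them Inha, Aard and Sox9. The transferrin gene Trf was higher in MSC-1. Of all 3198 listed probe sets 59.5% were higher in primary cells, and nothing about cell identity is read from the marker count.

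Spink2, the acrosin inhibitor, read 1597, 1933 and 2081 on primary arrays 1, 2 and 3. On the MSC-1 arrays it read 11.4, 9.42 and 10.9. The primary arrays were all high and within 1.30-fold of each other, the MSC-1 arrays were all low, and the lowest primary value was 141-fold the highest MSC-1 value. The mean was 1870 ± 248 (SD, n = 3) in primary cells and 10.6 ± 1.01 (SD, n = 3) in MSC-1, a ratio of 177. The authors' deposited table gives 77.5-fold, which is rank 41 among its 1902 positive folds. No other Spink gene of a list of 12 had a probe set in that table.

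Acr, the protease itself, read 488, 643 and 620 on the primary arrays. Its MSC-1 values were 13.8, 7.43 and 8.07. The groups were far apart, with the lowest primary value 35.3-fold above the highest MSC-1 value, and the primary spread was narrow at 14.3% of the mean. The log2 difference was 4.38 ± 0.18 (standard error), and the means of 584 ± 83.5 and 9.78 ± 3.53 (SD, n = 3 each) stood at a ratio of 59.7. The authors' deposited table gives 32.3-fold for Acr, rank 270 of the positive folds.

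Acrbp, the partner of proacrosin, was read by a pair of probe sets. Probe set 1422874_at read 148, 198 and 228 on the primary arrays and 12.8, 8.48 and 4.72 on the MSC-1 arrays. Probe set 1451333_a_at read 434, 556 and 587 in primary cells and 40.5, 36.8 and 25.7 in MSC-1. Both showed the same picture, with no overlap between groups and primary array 1 lowest. Their log2 differences were 2.90 ± 0.20 and 3.27 ± 0.18 (standard errors), which lie 0.36 apart. Which of them is larger depends on the scale, since the authors' deposited table gives 21.1-fold for 1422874_at and 8.63-fold for 1451333_a_at. With a pseudocount of 1 the differences were 4.13 and 3.66. The MSC-1 values of 1451333_a_at were the exception among the 4 genes in lying above the array medians, while the other 12 of 15 MSC-1 values lay below them.

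Acrv1, the vesicle protein gene of round spermatids, read 94.5, 45.6 and 72.5 on the primary arrays. Its MSC-1 values were 5.66, 9.47 and 8.80. The groups did not overlap, yet the lowest primary value, on array 2, was only 4.81-fold the highest MSC-1 value. The means were 70.9 ± 24.5 in primary cells and 7.98 ± 2.03 in MSC-1 (SD, n = 3 each), a ratio of 8.88. The primary spread was 34.6% of the mean, the widest of the 5 probe sets. The authors' deposited table gives 5.15-fold, rank 1533 of the positive folds.

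**Figure D1:**
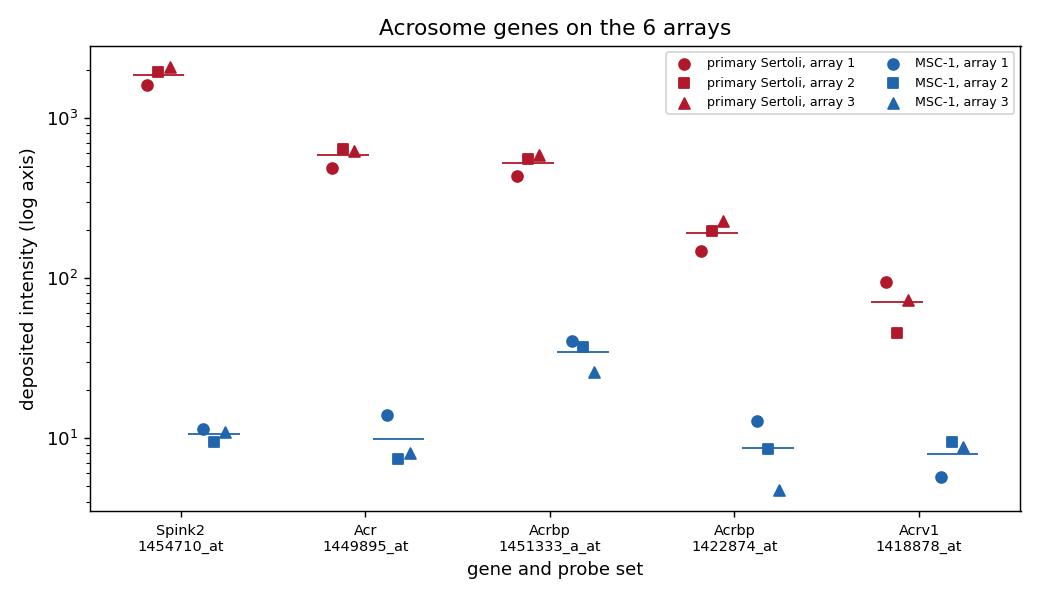
Deposited intensity (log axis) of the 5 probe sets of Acr, Acrbp, Acrv1 and Spink2 on each of the 6 arrays, with a horizontal line at each group's mean. Red points are the 3 primary Sertoli cell arrays and blue points the 3 MSC-1 arrays, and the marker shape gives the array number, which pairs nothing between groups. Every red point lies above every blue point of its probe set, and Acrv1 has its lowest red point on array 2 (45.6).

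The groups did not overlap for 5 of 5 probe sets of the 4 genes, against 24.1% of all probe sets that were non-overlapping and higher in primary cells and 4.22% that the table lists as higher there. Since the rule found the genes in a table selected on this difference, nothing is read from that count. The median log2 difference of the 5 probe sets was 3.27, beside 2.70 for the 1902 probe sets with a positive fold and -0.18 for all probe sets. The size of each difference depends on the small constant added before the log, because the MSC-1 values are low. Between pseudocounts of 64 and 1, the log2 difference ran from 4.61 to 7.08 for Spink2, from 3.05 to 5.55 for Acr and from 0.81 to 2.72 for Acrv1. Without primary array 1, which stood apart, the log2 differences were 6.11 for Spink2, 4.52 for Acr, 3.08 and 3.41 for the Acrbp probe sets and 1.48 for Acrv1. The order Spink2, Acr, Acrbp, Acrv1 was the same at pseudocounts of 1, 16 and 64 and in the authors' folds.

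**Figure D2:**
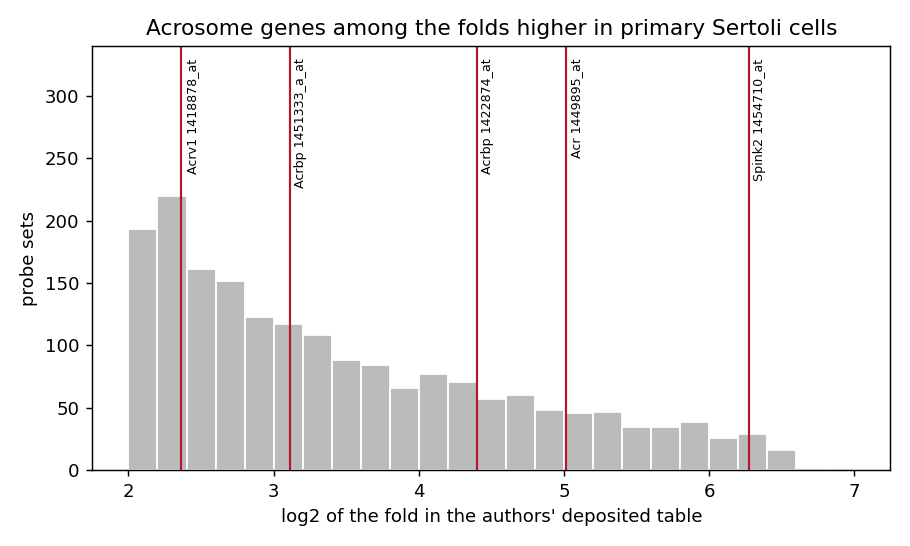
Histogram of the 1902 positive folds of the authors' deposited table on a log2 axis (number of probe sets per bin of 0.2), with a red line at each probe set of the 4 genes. Spink2 lies above 97.8% of the positive folds, Acr above 85.8%, the Acrbp probe sets above 76.7% and 47.7%, and Acrv1 above 19.3%.

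Other genes of the acrosome that the table lists were mostly on the same side, as were 59.5% of all 3198 listed probe sets. Of 28 further genes for acrosome contents and membrane, 8 were listed, and all 8 were higher in primary cells by limma at an adjusted p under 0.05. The background of that call is 15.5% of all probe sets higher in primary cells, 28.6% lower and 44.2% in either direction. Every one of the 3198 listed probe sets (100%) passed it, so the count adds nothing to the listing. Atp8b3, which encodes a lipid flippase of the acrosomal membrane, read 1114, 1771 and 2277 in primary cells against a mean of 18.2 in MSC-1, a log2 difference of 5.46 ± 0.27. Zpbp2, a gene of a zona pellucida binding protein, differed by 4.96 ± 0.17, Spesp1, a gene of the equatorial segment, by 4.27 ± 0.13, and Prss39, a gene of an acrosomal serine protease, by 3.47 ± 0.18. The median of the 8 genes was 3.24.

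Of 18 genes for building the acrosome, 6 were listed, with 5 higher and 1 lower in primary cells, beside 59.5% higher among all listed probe sets. Nothing particular to this list is read from that count. Dpy19l2, whose product anchors the acrosome to the nucleus, differed by 4.81 ± 0.20, and Spata16, a Golgi protein gene whose loss gives round-headed sperm in humans, by 4.90 ± 0.18. Rimbp3, a gene of the manchette that shapes the sperm head, differed by 5.01 ± 0.26, and the TBP-like factor gene Tbpl1 by 3.41 ± 0.19. The exception was the autophagy gene Atg7, which read 8.99, 19.4 and 31.4 in primary cells and 98.6, 102 and 104 in MSC-1, a difference of -1.92 ± 0.22. Gene symbols here come from the 4-fold table alone, so a gene that it does not list has no value here.

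Listed germ cell genes were higher in the same samples as the 4 genes. All 15 listed of 28 spermatocyte genes, all 7 listed of 20 spermatogonia genes and all 9 listed of 26 spermatid genes were higher in primary cells, with median log2 differences of 3.50, 3.53 and 2.37. Of all listed probe sets 59.5% were higher there, and of all probe sets on the array 15.5% were called higher. The summed intensity of the listed spermatocyte genes was 6850 to 9283 on the primary arrays and 312 to 383 on the MSC-1 arrays. For the spermatid genes the sums were 2440 to 3192 and 75.0 to 98.9, and for the spermatogonia genes 2950 to 4197 and 97.8 to 107. With 1 probe set a gene, that of the highest mean log2 value, 3 genes led the spermatocyte list. These were Piwil1, at 5.27 ± 0.15, Sycp1, at 5.25 ± 0.15, and Pgk2, at 5.08 ± 0.24. Brdt, another gene of that list, differed by 5.41 ± 0.13 at the first of its 2 listed probe sets and by 2.24 ± 0.16 at the second. The mean log2 value over the 6 arrays was 6.90 for the first and 7.41 for the second, so the second was ranked. The first was brighter on the primary arrays, at a mean of 809 against 379, and dimmer on MSC-1, at 1.34 against 58.6. Among the spermatid genes, Tekt1 differed by 4.82 ± 0.22, the regulator gene Crem by 4.54 ± 0.15 and Actl7b by 4.24 ± 0.20. The highest of the spermatogonia list were Dmrtb1 at 5.49 ± 0.22 and Taf7l at 4.57 ± 0.25. The part of these cells in the values of the acrosome genes was not tested, and in bulk RNA fewer cells of a type and less RNA per cell cannot be told apart.

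**Figure D3:**
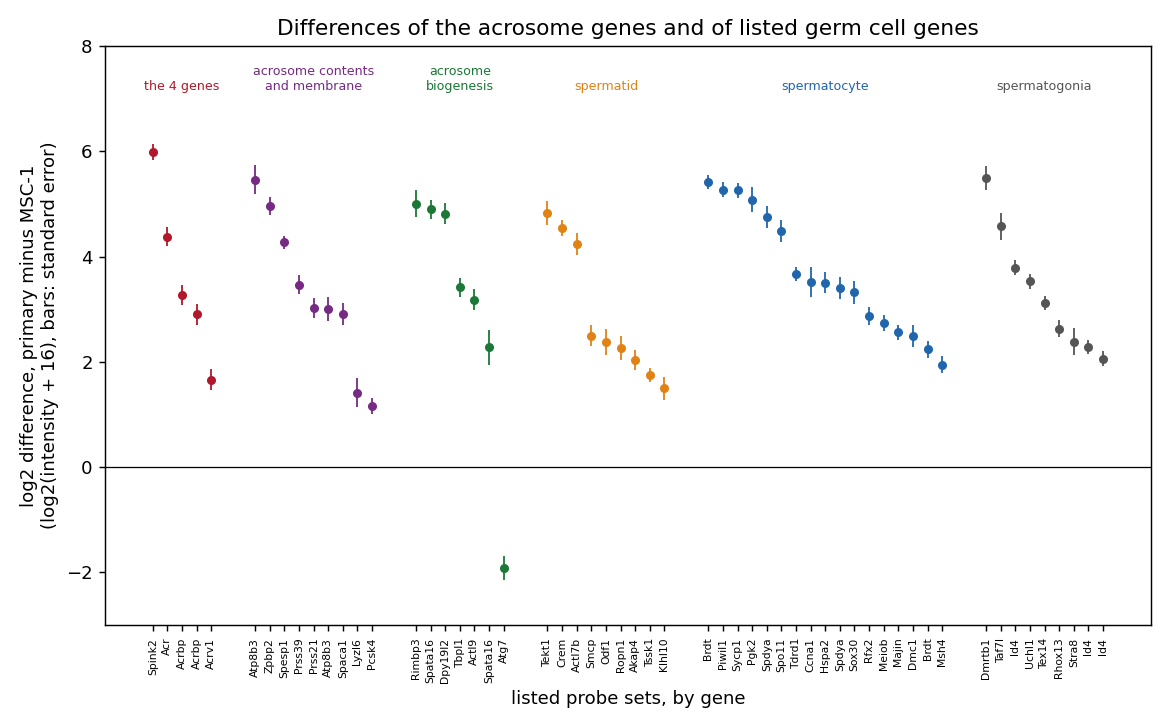
Log2 difference, primary minus MSC-1, on the scale of log2(intensity + 16), for the listed probe sets of the 4 genes and of the 5 lists of acrosome and germ cell genes, with bars for the standard error. Atg7 is the probe set below 0, and the other listed probe sets shown lie above it, with Spink2 highest at 5.98 and Acrv1 at 1.66.

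Among the primary arrays, the 4 genes fell into separate patterns. Acr, Spink2 and both Acrbp probe sets were lowest on array 1, which lay 0.38 to 0.53 below the mean of arrays 2 and 3 on the log2 scale. That is the common pattern: array 1 was lowest for 67.9% of the 1902 probe sets with a positive fold, and the median gap of these probe sets was -0.36. Acrv1 was highest on array 1 and lowest on array 2, at 0.48 of its array 1 value. An order with array 1 highest and array 2 lowest was found for 9.73% of the probe sets with a positive fold. Array 2 lay 0.61 below the mean of arrays 1 and 3 for Acrv1, and 69 of those probe sets (3.63%) had a gap at least as deep. The lowest array of each of the 5 probe sets was the same in the intensities as deposited, after centring and after quantile normalization.

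The listed spermatid genes were divided. Of 9, 6 were lowest on array 2 and 5 of these were also highest on array 1, the order of Acrv1. The background among probe sets with a positive fold was 14.2% for array 2 lowest and 9.73% for that order. Over all 45037 probe sets, array 2 was lowest for 32.7%. The median of the 9 genes on array 2 was 0.67 below arrays 1 and 3. Smcp, a gene of the sperm mitochondrial capsule, read 130, 67.2 and 125 on primary arrays 1 to 3. The sperm tail genes Akap4, at 79.2, 38.6 and 72.6, and Odf1, at 124, 54.0 and 113, were named after their values were seen and had the same order. Tekt1, Crem and Actl7b, the leading spermatid genes, were instead lowest on array 1. Their primary means were 699 to 776, whereas those of the 5 genes ordered like Acrv1 were 63.5 to 107.

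Genes of earlier germ cells mostly had the common pattern, with array 1 lowest. Of the 22 listed spermatocyte and spermatogonia genes, 20 were lowest on array 1 and 0 on array 2. Among all probe sets with a positive fold these shares were 67.9% and 14.2%. Of the 8 listed acrosome genes for contents and membrane, 5 were lowest on array 1, near that common share, and 3 on array 2. Pcsk4, one of these 3 and named after its values were seen, read 112, 111 and 111, within 1.01-fold. On the centred log2 scale its array 2 lay 0.07 above the mean of arrays 1 and 3, so its order is not resolved. All 5 biogenesis genes higher in primary cells were lowest on array 1. Spaca1, a gene of the acrosomal membrane, read 171, 107 and 178, and Lyzl6, a lysozyme-like gene, 79.1, 22.7 and 54.3, both named after their values were seen. With 3 arrays and no replicate of a single preparation, these orders have no test.

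The order of Acrv1 was also that of some somatic markers. Of the 6 listed Sertoli cell markers higher in primary cells 3 had it, beside 9.73% of all probe sets with a positive fold. All 4 listed of 7 peritubular genes were highest on array 1, and 3 of them were lowest on array 2, as for Acta2 at 1262, 603 and 658. Their summed intensity was 2885, 1555 and 1591 on the primary arrays and 95.6 to 124 on the MSC-1 arrays. The 2 listed macrophage genes of 8, Fcgr3 and Mpeg1, were lowest on array 1, as were 67.9% of the probe sets with a positive fold. The macrophage sums were 496 to 926 in primary cells and 28.3 to 65.5 in MSC-1. The 2 listed Leydig cell genes of 7, Star and Pdgfra, were lowest on array 3 at the probe set used. Their sums were 1189 to 2472 in primary cells and 89.1 to 122 in MSC-1. Of the 3 listed probe sets of Pdgfra, 1421916_at was also lowest on array 3. The remaining one, 1438946_at, read 162, 84.4 and 92.8, the array order of Acrv1. The lowest value of the whole table was 0.016, so no marker could read 0, and a value above 0 does not show that its transcript was present. Whether these cells bear on the order of Acrv1 was not tested.

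**Figure D4:**
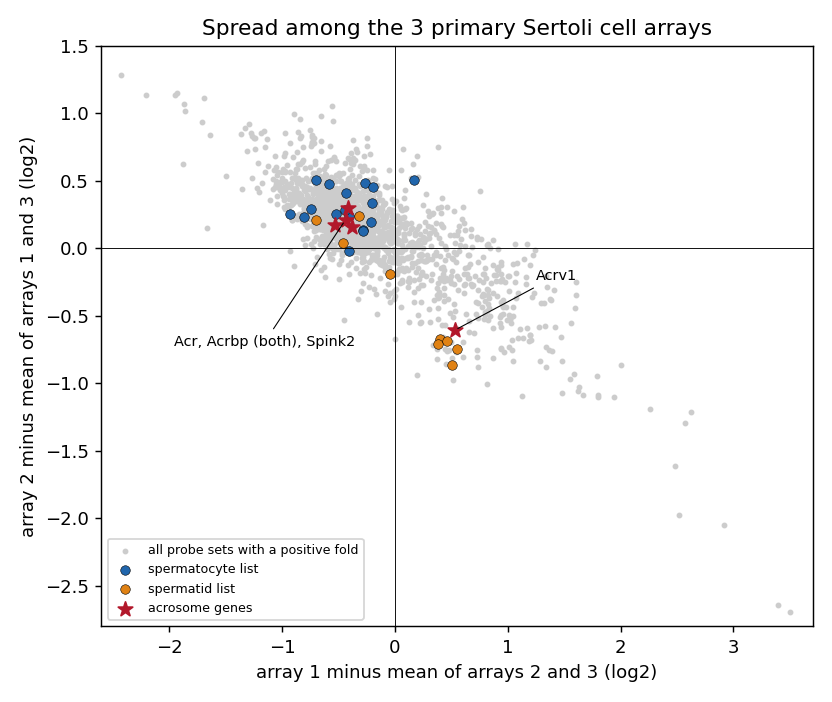
For each probe set with a positive fold (grey), array 1 minus the mean of arrays 2 and 3 (x axis) against array 2 minus the mean of arrays 1 and 3 (y axis), both in log2 units on the primary Sertoli cell arrays. Both axes share arrays, so they tilt downwards by construction. Acrv1 (0.53, -0.61) lies beside 5 spermatid genes at the lower right, and Acr, Spink2 and both Acrbp probe sets lie at the upper left with most spermatocyte probe sets, apart from Dmc1 (0.17, 0.51) and Rfx2 (-0.41, -0.02).

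Over all 6 arrays the profiles of Acr, Acrbp and Spink2 correlated with each other at 0.992 to 0.999, and that of Acrv1 with theirs at 0.926 to 0.955. These values describe 6 arrays in separate groups and mostly reflect the difference between the groups. Of 2325 other genes, the closest to the mean profile of the 5 probe sets by Pearson correlation were Morn5 at 0.9998, Dnaic1, which encodes a dynein chain of motile cilia, at 0.9998, Plpp1 at 0.9997, Msl3l2 at 0.9997 and Ndst4 at 0.9997. For Acrv1 alone, a comparison added after the data were seen, they were Kdf1 at 0.998, Pde1a at 0.997, 2610318N02Rik at 0.996, Gcnt2 at 0.996 and Kif2b at 0.996. Kdf1 read 85.1, 31.0 and 58.0 on the primary arrays, the array order of Acrv1, whereas Morn5 read 1793, 2085 and 2497, the array order of Spink2.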

How the data were processed

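The members and the gene lists were chosen with earlier results of these data known. RNA of 6 samples was hybridised to Affymetrix arrays, and the submitters' processing notes name GCOS, Affymetrix's software, without its role. The authors deposited an intensity per probe set and array on a linear scale, and its summary and scaling are not given in the sources used here. Also deposited by the authors was a table of signed folds, treated as a score, of at least 4 in size, with criteria not stated. The other unit computed here is log2(intensity + 16), centred on each array's median, from the deposited intensity. limma 3.58.1 in R 4.3.3 (lmFit, eBayes) was fitted to all 45037 probe sets with Benjamini-Hochberg adjustment and a threshold of 0.05, and was tested on simulated data. The planned counts over gene lists could cover only genes that the 4-fold table names, with 1 probe set a gene. That was the probe set with the highest mean log2 value over the 6 arrays. Symbols of the table were matched to RefSeq (GRCm38.p6). Named are the 4 genes, up to 4 genes per list with the largest difference and up to 2 against it, and the 5 closest profiles. Same-numbered samples of the groups did not deviate together (correlations of -0.04, -0.06 and 0.03), so they were not paired. Alternatives changed the pseudocount, normalization, centring, filter, variance model, probe set and replicates. Python 3.11.15, numpy 2.4.6, pandas 2.3.3 and matplotlib 3.10.9 were used.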

Additional observations from a re-analysis of the deposited data

How the results depend on the processing

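No alternative turned the direction of any of the 5 probe sets, and leaving out any array kept the log2 differences within 5.91 to 6.11 for Spink2, 4.28 to 4.52 for Acr, 2.77 to 3.08 and 3.13 to 3.41 for the Acrbp probe sets and 1.48 to 1.86 for Acrv1. The pseudocount moved each by more than the SD between replicates: with 1 the values were 7.08 for Spink2, 5.55 for Acr, 4.13 for Acrbp 1422874_at, 3.66 for Acrbp 1451333_a_at and 2.72 for Acrv1, and with 64 they were 4.61, 3.05, 1.73, 2.50 and 0.81. In the authors' deposited table the log2 folds were 6.28, 5.01, 4.40, 3.11 and 2.36. The number of probe sets called was 19889, ran from 16655 to 20419 with an array left out and was 18714 with the replicate number as a block. Of the called probe sets 35.2% were higher in primary cells, against 42.3% after quantile normalization and 46.6% without centring, an alternative added after the data were seen, so that share depends on the scaling. Centring removed a shift of 0.16 between the group medians. Counts of listed genes called per list did not change under any of the 14 alternatives run for each, but all listed probe sets pass the call and the Kazal list has 0 listed genes, so this says nothing about stability. Low MSC-1 intensities with no detection call limit the size of each fold, not its sign on these arrays.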

Other observations

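Of the 16 protein-coding genes that lie nearest to the 4 genes in RefSeq order, 2 on either side of each, 2 have a probe set under their own symbol in the authors' deposited table. They were named after their values were seen. The share of all protein-coding genes with a listed probe set was not computed, so nothing is read from that count. Thegl, near Spink2, stood at 9.08-fold in favour of primary cells there, by the authors' deposited table. Chek1, a checkpoint kinase gene that lies next to Acrv1, has folds in the authors' deposited table of -5.05 and -4.98 for its 2 probe sets, so it was lower in primary cells, opposite in sign to Acrv1.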
